A study of Homo sapiens with 14 samples.

Results

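Expression arrays of WI-38 cells were compared, 6 with a low signal for ITGA8 and 5 with a high one. They are labelled as hTERT cells, except for an ITGA8-high array labelled as primary cells. WI-38 is a diploid fibroblast strain from human lung, and hTERT is the catalytic subunit of telomerase, which lets such cells keep dividing. The series holds 14 arrays in labelled duplicates, which are hTERT A cells of passages 39, 50, 58, 67 and 95, hTERT B cells of passage 96, and primary cells of passage 19 without an hTERT label. The meaning of the letters A and B is unknown. Arrays are named below by their label and replicate, such as A50 replicate 2.

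The states were chosen on measured values. ITGA8-low arrays had an ITGA8 value below 6 log2 with TERT above 10, and were A50 replicate 2, A58 replicates 1 and 2, A67 replicates 1 and 2 and A95 replicate 1. ITGA8-high arrays had AMZ2P1 above 11 log2 with ITGA8 above 10, and were primary replicate 2, A39 replicates 1 and 2, A50 replicate 1 and B96 replicate 2. The bound of 10 on ITGA8 was set for this work. Primary replicate 1, A95 replicate 2 and B96 replicate 1 belonged to neither state. A row of the array, a probe set for 1 transcript locus, counted as linked to the states when its 6 ITGA8-low values and its 5 ITGA8-high values did not overlap. Of 28869 rows, 1834 met this, or 6.35%. Since arrays and rows were picked from the same values, each difference between the states below is a description and carries no test.

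ITGA8 encodes the alpha 8 integrin subunit, which pairs with ITGB1 to bind matrix proteins carrying an RGD motif and is found on mesenchymal and smooth muscle cells. Integrins anchor a fibroblast to the matrix that it secretes, and they pass on signals about that matrix. TNFRSF21, or death receptor 6, is a receptor of the tumour necrosis factor family with a death domain. VAT1L is related to the vesicle amine transport protein VAT1, and AMZ2P1 is a transcribed pseudogene of the peptidase gene AMZ2. The series title is about differentially methylated regions that arise at random. Whether the expression differences below have to do with such regions was not tested.

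Labels and array similarity did not match. Each of the 11 arrays was closest to another array of its own state by Pearson correlation over rows, and for 0 of the 11 was that closest array the one sharing its label. There were 4 mutual pairs, with correlations of 0.9895 to 0.9929. In ITGA8-low these joined A58 replicate 1 to A50 replicate 2 and A67 replicate 1 to A58 replicate 2, and in ITGA8-high A39 replicate 1 to primary replicate 2 and A50 replicate 1 to A39 replicate 2. Each of the 4 pairs thus joined replicate 2 of one label to replicate 1 of the label with the next higher passage, as did the pair of A95 replicate 2 and B96 replicate 1 outside both states. Whether the labels are right was not tested, and statements below on passage, on label A50 and on the hTERT B label hold only as far as they are. Pairs of the series that share a label had correlations of 0.9445 to 0.9833. The boundary between the states ran through label A50, whose replicate 2 was ITGA8-low and whose replicate 1 was ITGA8-high. The array labelled primary replicate 2 read 11.70 log2 for TERT, inside the range of the arrays labelled hTERT, while primary replicate 1 read 7.07. The library labelled primary replicate 2 therefore stands in the ITGA8-high state against its label. Without it 1208 rows were lower and 878 higher, and the differences were -5.70 for AMZ2P1, -5.34 for ITGA8, -4.71 for TNFRSF21 and -4.20 for VAT1L. Of the gene lists described further on, the TGF-beta and BMP pathway then had 4 lower and 4 higher genes, and the markers of fat, cartilage and bone 1 lower and 1 higher. Arrays of a close pair may not be independent, so an SD over 6 or 5 arrays may understate the spread between cultures.

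ITGA8 read 5.19, 5.48, 5.41, 5.41, 5.08 and 5.41 log2 in the ITGA8-low arrays, in the order A50 replicate 2, A58 replicates 1 and 2, A67 replicates 1 and 2 and A95 replicate 1. In the ITGA8-high arrays, in the order primary replicate 2, A39 replicates 1 and 2, A50 replicate 1 and B96 replicate 2, it read 10.14, 10.19, 10.92, 10.87 and 10.69. The 2 sets lay far apart, as the rule requires. The means were 5.33 ± 0.16 (SD, n = 6) in ITGA8-low and 10.56 ± 0.37 (SD, n = 5) in ITGA8-high arrays, a difference of -5.23 log2, where a negative sign means lower in ITGA8-low. The same arrays and order apply to the values below.

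AMZ2P1 showed the largest difference of any named gene among the 1834 rows. It read 6.79, 6.71, 6.45, 6.17, 6.07 and 6.48 in ITGA8-low arrays and 12.26, 12.27, 12.13, 12.22 and 11.96 in ITGA8-high arrays, a difference of -5.72. TNFRSF21 read 5.38, 5.46, 5.42, 5.69, 5.43 and 5.63 in ITGA8-low arrays, against 9.74, 9.91, 10.63, 10.58 and 9.73 in ITGA8-high arrays, a difference of -4.62. VAT1L, the remaining marker, read 5.83, 6.13, 5.69, 6.06, 5.56 and 5.92 in ITGA8-low arrays, against 9.59, 9.52, 10.51, 10.42 and 9.80 in ITGA8-high arrays, a difference of -4.10. Within the ITGA8-low state each of the 4 genes varied little, with SDs of 0.13 to 0.285. The deposited table holds no detection call, so whether values of 5 to 6 log2 are above background is unknown.

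**Figure D1:**
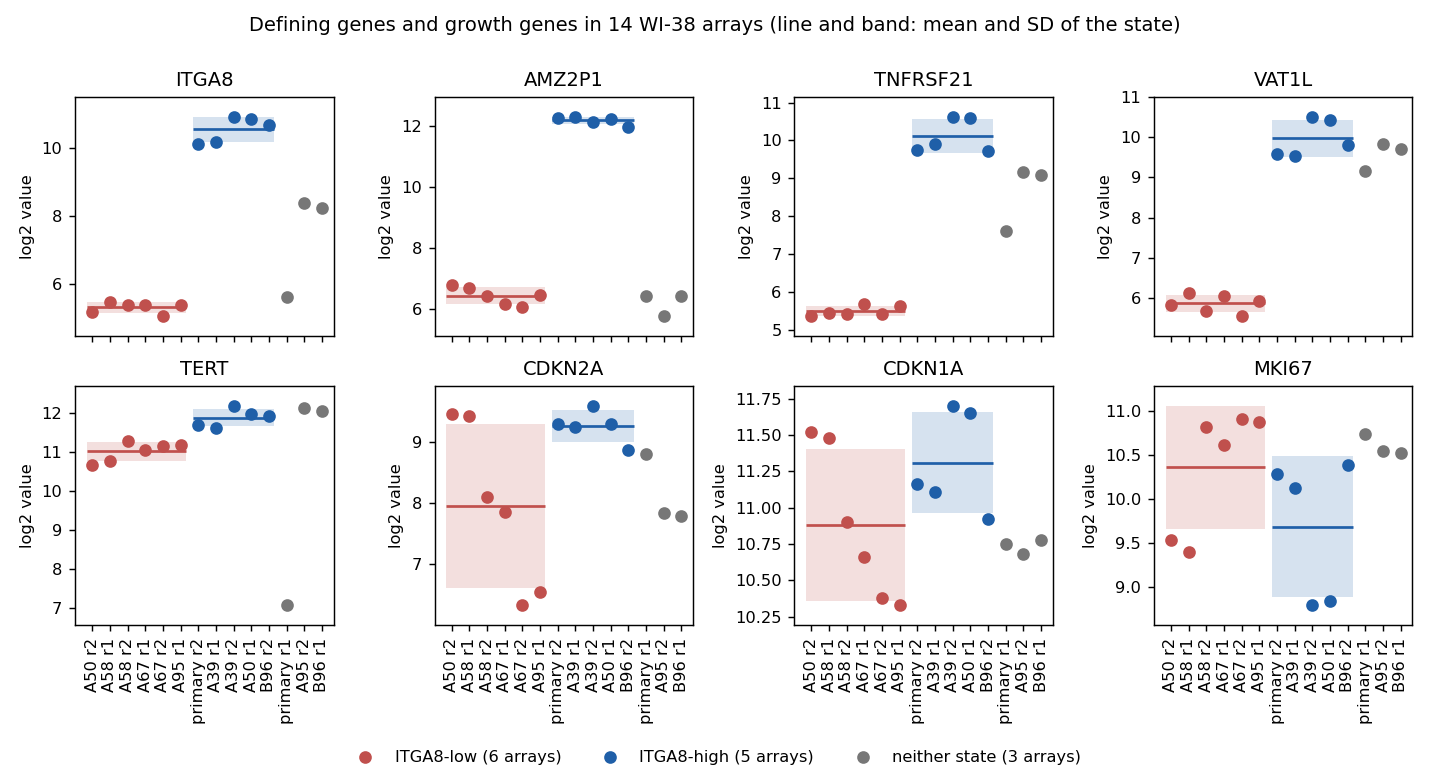
Log2 values (y axis) of the 4 defining genes, TERT, CDKN2A, CDKN1A and MKI67 in each of the 14 arrays (x axis, r for replicate), with ITGA8-low arrays on the left, ITGA8-high arrays next and the 3 other arrays in grey. Lines and bands are the mean and SD of a state; ITGA8 lies at 5.08 to 5.48 in ITGA8-low and 10.14 to 10.92 in ITGA8-high arrays, whereas the CDKN2A, CDKN1A and MKI67 values of the 2 states overlap.

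The arrays outside both states did not keep the 4 markers together. In primary replicate 1, A95 replicate 2 and B96 replicate 1, ITGA8 read 5.63, 8.39 and 8.25. AMZ2P1 read 6.43, 5.79 and 6.43 in the same 3 arrays, and each value was within or below the ITGA8-low range. VAT1L read 9.16, 9.82 and 9.70, and TNFRSF21 read 7.62, 9.17 and 9.08, between the 2 ranges. VAT1L was inside the ITGA8-high range in A95 replicate 2 and B96 replicate 1, where ITGA8 lay between the 2 ranges. In primary replicate 1 ITGA8 was just above the ITGA8-low range and VAT1L just below the ITGA8-high range.

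Promoter sequence is shown for members of both directions with its content of CpG, the substrate of DNA methylation. The windows are the 250 bases before the RefSeq transcription start (GRCh38.p14), written 5′ to 3′ on the gene's own strand, with each CpG in capitals. ITGA8 lies at chr10:15719923-15720172 on the minus strand and has 19 CpG, TNFRSF21 at chr6:47309906-47310155 on the minus strand and has 20, and VAT1L at chr16:77788314-77788563 on the plus strand and has 16. Of 2 genes higher in ITGA8-low arrays, FOXE1, at chr9:97852976-97853225 on the plus strand, has 26 CpG, and RTN1, at chr14:59610140-59610389 on the minus strand, has 1. The array does not say which start site these cells use, and no methylation value was analysed here.
ITGA8: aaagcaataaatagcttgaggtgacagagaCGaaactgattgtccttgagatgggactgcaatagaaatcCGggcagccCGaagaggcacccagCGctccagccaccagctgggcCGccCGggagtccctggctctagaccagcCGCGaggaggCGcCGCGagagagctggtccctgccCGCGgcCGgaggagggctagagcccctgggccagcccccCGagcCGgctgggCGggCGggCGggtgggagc
TNFRSF21: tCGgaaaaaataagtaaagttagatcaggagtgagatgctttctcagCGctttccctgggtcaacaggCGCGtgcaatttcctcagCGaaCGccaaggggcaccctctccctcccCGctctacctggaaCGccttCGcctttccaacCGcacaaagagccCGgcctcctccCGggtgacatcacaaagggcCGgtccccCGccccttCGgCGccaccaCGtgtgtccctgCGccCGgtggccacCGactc
VAT1L: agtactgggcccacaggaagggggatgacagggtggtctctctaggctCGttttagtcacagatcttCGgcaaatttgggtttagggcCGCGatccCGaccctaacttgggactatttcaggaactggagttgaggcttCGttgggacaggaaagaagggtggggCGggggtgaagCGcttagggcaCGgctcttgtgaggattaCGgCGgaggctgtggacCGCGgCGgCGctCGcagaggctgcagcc
FOXE1: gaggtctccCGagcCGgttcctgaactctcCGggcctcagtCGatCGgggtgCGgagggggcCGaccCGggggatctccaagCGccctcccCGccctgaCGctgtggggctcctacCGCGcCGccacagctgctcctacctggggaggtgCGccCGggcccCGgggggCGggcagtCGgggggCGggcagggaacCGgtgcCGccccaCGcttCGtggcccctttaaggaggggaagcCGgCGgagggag
RTN1: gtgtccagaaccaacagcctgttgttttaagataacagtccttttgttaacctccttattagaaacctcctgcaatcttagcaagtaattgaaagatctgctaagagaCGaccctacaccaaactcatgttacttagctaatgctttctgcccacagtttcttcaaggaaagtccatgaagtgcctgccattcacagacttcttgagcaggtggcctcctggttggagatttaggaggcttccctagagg

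The 5 windows ranged from a dense CpG stretch in FOXE1 to the nearly CpG-free RTN1 window, so these 5 genes did not share one promoter type. The choice of genes shown matters, since GFRA1, also among the 15 largest lower genes, has 5 CpG in its 250 bases. No window is shown for AMZ2P1. Across all protein-coding genes with a window in the RefSeq table, the median CpG count in the full window around the start was 27 for the 696 genes lower in ITGA8-low arrays (of 849), 26 for the 478 higher (of 576) and 23 for the 13740 measured (of 16862). Windows with at least 15 CpG made up 75.6% of the lower, 80.1% of the higher and 68.3% of all genes. Windows with 5 or fewer made up 10.5%, 9.6% and 17.9%. Both groups also had higher signals than the array as a whole, with median levels of 8.87 and 9.30 log2 against 8.16, and the part of level in the CpG counts was not tested. Shares were lower among large differences. With a difference of at least 2 log2, 63.2% of the 57 lower and 62.5% of the 24 higher genes with a window had at least 15 CpG. With at least 1 log2 the share was 63.0% of 173 lower and 68.0% of 97 higher genes with a window, against 68.3% of all genes. Only 79.7% of these lower genes had a window, which limits their share.

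Of the 1834 rows, 1080 were lower in ITGA8-low arrays, 3.74% of all rows, and 754 were higher, 2.61% of all rows. Most differences were small, with a median of -0.553 among the lower rows and 0.485 among the higher ones, and the median over all 28869 rows was 0. A difference of at least 1 log2 was found for 265 lower and 130 higher rows, of at least 2 log2 for 79 and 33, and of at least 4 log2 for 7 and 3. The gap between the sets, from the nearest array of one to the nearest of the other, had a median of 0.13 for lower and 0.12 for higher rows. It was at least 2 log2 for 28 lower and 4 higher rows and at most 0.02 for 143 lower and 91 higher rows, which thus rest on the last digits of the table. Another 74 rows with a mean at least 1 log2 lower, and 53 with one at least 1 log2 higher, overlapped and are not members.

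**Figure D2:**
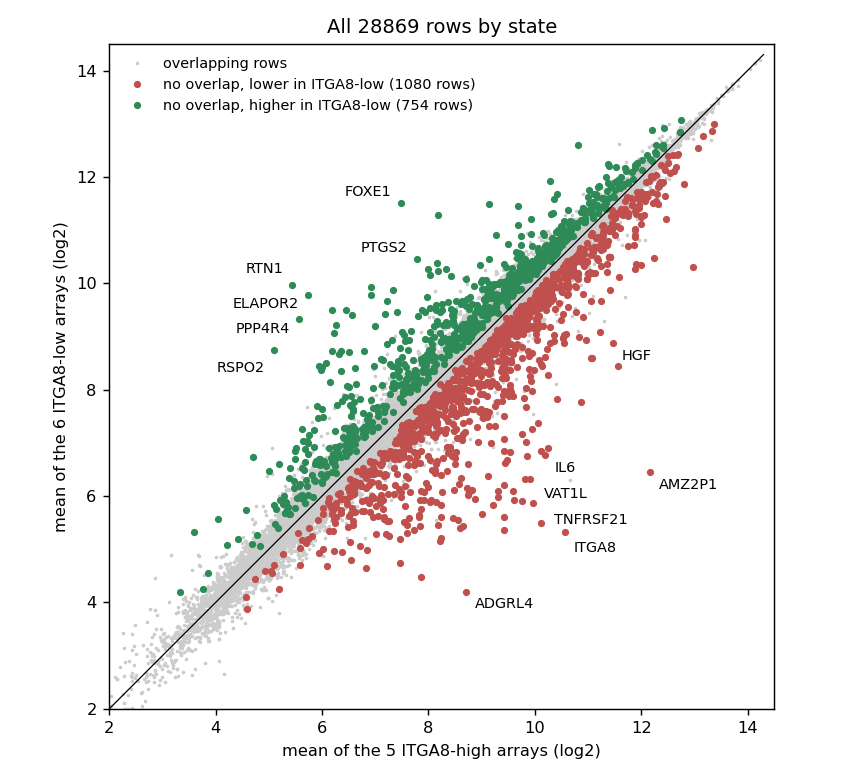
Mean log2 value of each of the 28869 rows in the 6 ITGA8-low arrays (y axis) against the 5 ITGA8-high arrays (x axis). Red points are the 1080 rows lower without overlap, green points the 754 rows higher without overlap, and grey points overlap; labelled genes such as AMZ2P1 and ITGA8 sit far below the diagonal and RTN1 and FOXE1 far above it.

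The edge of the rule can be read from rows with a difference of at least 2 log2. IFI44, an interferon-induced gene, had a highest ITGA8-low value of 7.05 and a lowest ITGA8-high value of 7.11. FAR2 and SLCO1B3 were separated by 0.11 and 0.19 in the other direction. Just outside lay IFI44L, with ITGA8-low values up to 6.03 and ITGA8-high values down to 5.92, IFIT1 with an overlap of 0.21 and PSG3 with one of 0.38.

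Genes lower in ITGA8-low arrays included several for receptors and surface proteins. ADGRL4, an adhesion G protein-coupled receptor known from endothelial cells, averaged 4.20 ± 0.18 in ITGA8-low and 8.70 ± 0.32 in ITGA8-high arrays (SD, n = 6 and 5). GFRA1, the co-receptor of the growth factor GDNF, read 5.51 to 5.75 in ITGA8-low arrays and 9.46, 9.43, 9.40, 9.43 and 9.41 in ITGA8-high arrays, with an SD of 0.02 in the ITGA8-high state. LPAR3, a receptor for lysophosphatidic acid, averaged 5.83 ± 0.097 in ITGA8-low and 9.22 ± 0.066 in ITGA8-high arrays. CLEC2B, a C-type lectin, averaged 4.48 in ITGA8-low and 7.86 in ITGA8-high arrays. ANO4, an anoctamin of the plasma membrane, averaged 5.92 in ITGA8-low and 9.60 in ITGA8-high arrays. In each of these 5 genes the lowest ITGA8-high array exceeded the highest ITGA8-low array by more than 2 log2.

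Some of the lower genes encode secreted proteins. IL6, the inflammatory cytokine, read 6.97, 6.77, 6.19, 6.55, 7.25 and 6.87 in ITGA8-low arrays and 10.61, 10.29, 11.06, 11.08 and 7.96 in ITGA8-high arrays, with B96 replicate 2 close to the ITGA8-low range. HGF, the hepatocyte growth factor that mesenchymal cells supply to epithelia, averaged 8.87 ± 0.47 in ITGA8-low and 11.47 ± 0.27 in ITGA8-high arrays, a difference of -2.60. THBS2, a matricellular protein, averaged 6.76 ± 0.20 in ITGA8-low and 9.85 ± 0.32 in ITGA8-high arrays, a difference of -3.09. FIBIN, which encodes a secreted factor known from zebrafish fin bud formation, averaged 5.36 ± 0.19 in ITGA8-low and 9.42 ± 1.02 in ITGA8-high arrays. Among the ITGA8-high arrays FIBIN was lowest in B96 replicate 2, at 7.97, and highest in A50 replicate 1, at 10.44.

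Other lower genes of the 15 with the largest differences act inside the cell or at its surface. DENND2A, an exchange factor for Rab GTPases, had a difference of -3.58, and TENT5C, a poly(A) polymerase, of -3.49. IFITM1, an interferon-induced membrane protein that restricts viruses, also had -3.49. PCDHB5, a clustered protocadherin of cell adhesion, read 5.57 to 6.20 in ITGA8-low arrays and 10.58, 10.80, 9.91, 10.99 and 6.48 in ITGA8-high arrays. For PCDHB5 the separation therefore rests on a step of 0.28 between A50 replicate 2 or A58 replicate 1, both at 6.20, and B96 replicate 2, whereas 4 of 5 ITGA8-high arrays read above 9.9.

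Among genes higher in ITGA8-low arrays, RTN1, a reticulon of the endoplasmic reticulum, read 9.33, 9.22, 10.16, 10.06, 10.52 and 10.48, against 5.37, 5.52, 5.55, 5.63 and 5.15 in ITGA8-high arrays. Its difference of 4.52 was the largest upward one of a named gene. FOXE1, a forkhead transcription factor known from thyroid and palate development, read 11.44, 11.43, 11.50, 11.41, 11.69 and 11.60 in ITGA8-low arrays and 9.04, 8.97, 6.39, 6.56 and 6.45 in ITGA8-high arrays. FOXE1 was thus even in one state and split in the other, where primary replicate 2 and A39 replicate 1 lay more than 2 log2 above the remaining 3 arrays. ELAPOR2 showed the reverse, with 7.72 and 7.56 in A50 replicate 2 and A58 replicate 1, 10.44 to 11.22 in the other 4 ITGA8-low arrays and 5.31 to 6.01 in all 5 ITGA8-high arrays.

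Signalling genes and ion channels were found in this direction. RSPO2, an R-spondin that amplifies Wnt signals and acts in limb and lung development, averaged 8.74 ± 0.39 in ITGA8-low and 5.09 ± 0.34 in ITGA8-high arrays. HHIP, a decoy that binds hedgehog ligands, averaged 9.93 ± 0.45 in ITGA8-low and 6.92 ± 1.04 in ITGA8-high arrays. SCN3A, a voltage-gated sodium channel, averaged 11.29 ± 0.45 in ITGA8-low and 8.18 ± 0.90 in ITGA8-high arrays. NALCN, the sodium leak channel, averaged 9.78 ± 0.47 in ITGA8-low and 6.93 ± 0.79 in ITGA8-high arrays. AGTR1, the angiotensin II receptor, differed by 2.53 and ERBB4, a receptor for neuregulins, by 2.50. FLRT3, a membrane protein of cell adhesion that also binds FGF receptors, differed by 3.30.

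Enzymes completed the 15 genes. PTGS2, the inducible cyclooxygenase of prostaglandin synthesis, read 10.89, 10.83, 10.11, 10.07, 10.46 and 10.38 in ITGA8-low arrays, against 8.45, 7.97, 7.62, 7.37 and 7.50 in ITGA8-high arrays. Its genomic neighbour PLA2G4A, the phospholipase that releases arachidonic acid for that reaction, averaged 9.46 ± 0.21 in ITGA8-low and 7.41 ± 0.28 in ITGA8-high arrays. GALNT3, which starts O-linked glycan chains, differed by 3.03, the sialyltransferase ST6GALNAC5 by 2.54, PPP4R4, a regulatory subunit of protein phosphatase 4, by 3.77, and PRSS3P2, a trypsinogen pseudogene whose row can share probes with its relatives, by 2.84. PTGS2 and IL6, which are both induced by inflammatory signals, thus lay in opposite directions between the states.

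**Figure D3:**
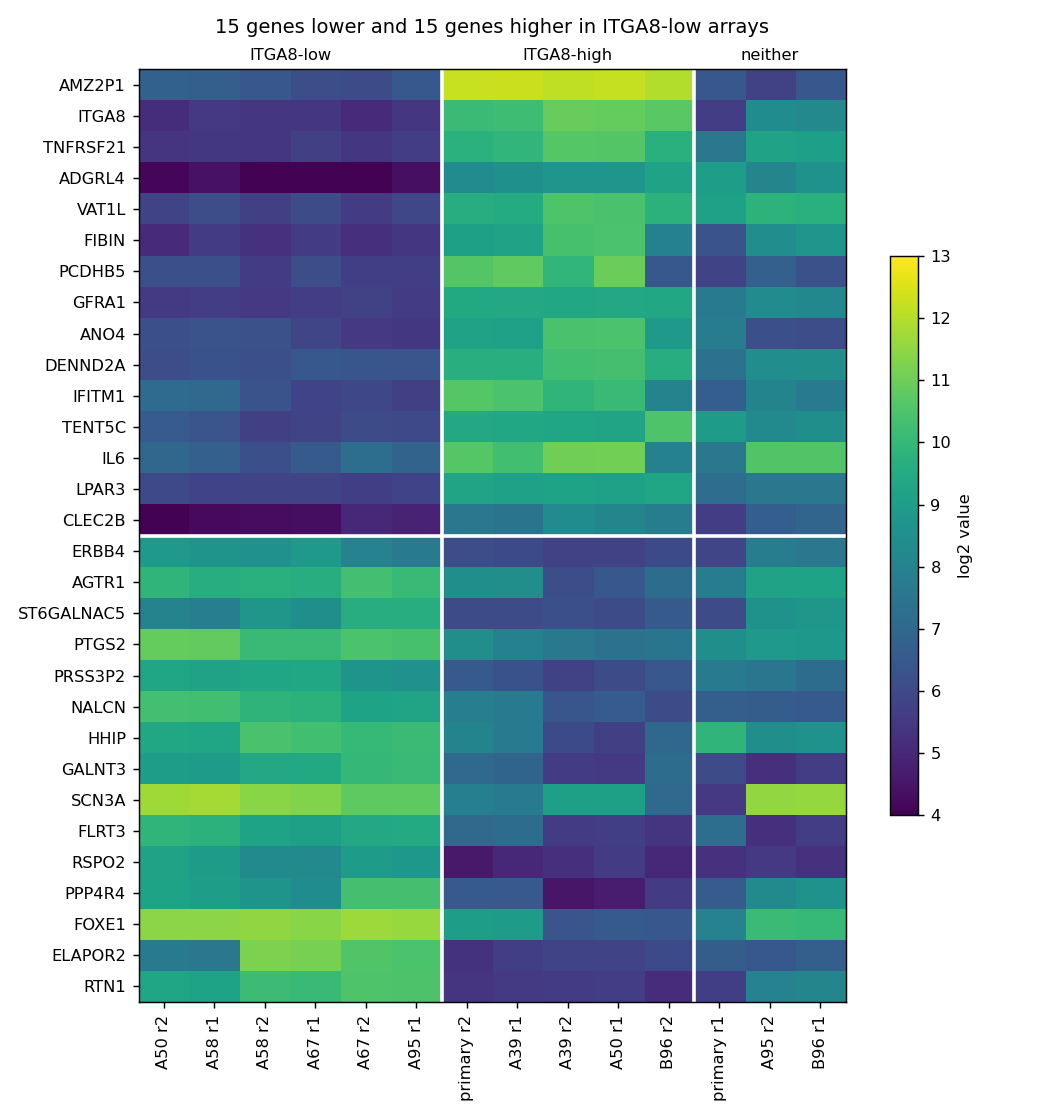
Log2 values (colour) of the 15 genes lower and the 15 genes higher in ITGA8-low arrays with the largest differences (rows) in each array (columns), ITGA8-low arrays on the left, then ITGA8-high and the 3 arrays in neither state. B96 replicate 2 is darker than its state for PCDHB5 (6.48) and IL6 (7.96), and the 3 arrays in neither state show some genes at one level and some at the other.

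The 3 arrays that the rule left out were set against both ranges for the rows with at least 1 log2 of difference. Of the 265 lower rows, primary replicate 1 lay within or past the ITGA8-low range for 34.0%, between the ranges for 32.5% and within or past the ITGA8-high range for 33.6%. A95 replicate 2 had 38.9%, 31.3% and 29.8%, and B96 replicate 1, its closest array, 39.6%, 30.6% and 29.8%. Of the 130 higher rows, primary replicate 1 lay on the ITGA8-low side for 10.8% and on the ITGA8-high side for 60.0%, A95 replicate 2 for 32.3% and 41.5%, and B96 replicate 1 for 33.1% and 40.8%. None of these 3 arrays followed either state for all rows.

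**Figure D4:**
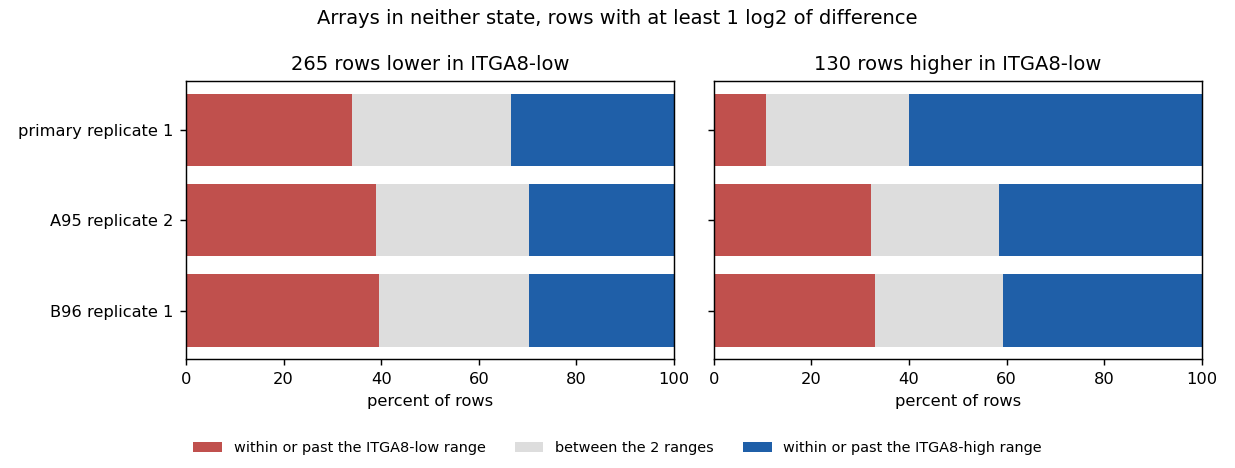
Percent of rows (x axis) for which each array in neither state (y axis) lay within or past the ITGA8-low range (red), between the ranges (grey) or within or past the ITGA8-high range (blue), for the 265 lower rows on the left and the 130 higher rows on the right. The blue share of primary replicate 1 reaches 60.0% on the right, against 33.6% on the left.

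Genes could be told apart by these 3 arrays. For 45 of the 265 lower rows, primary replicate 1 and the late pair, A95 replicate 2 and B96 replicate 1, were all on the ITGA8-low side. AMZ2P1 was such a row, as was PDGFD, a ligand of the PDGF receptor beta, with 5.76, 5.38 and 5.20 in the 3 arrays and state means of 5.15 in ITGA8-low and 8.23 in ITGA8-high arrays. For these rows the 5 ITGA8-high arrays were the ones of the 14 at the high level. For 28 lower rows all 3 arrays were on the ITGA8-high side, so that the 6 ITGA8-low arrays were the ones of the 14 at the low level. Among them were THBS2, with 9.61, 9.67 and 9.68, HSPB8, a small heat shock protein, with 9.24, 9.67 and 9.64 against a mean of 5.95 in ITGA8-low arrays, and RCN3, a calcium-binding protein of the secretory pathway, with 10.58, 10.01 and 10.16 against 7.01.

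The higher rows divided in like manner. For 34 of 130, all 3 arrays were on the ITGA8-high side, so that the 6 ITGA8-low arrays were the ones of the 14 at the high level. RSPO2 read 5.29, 5.49 and 5.29 in primary replicate 1, A95 replicate 2 and B96 replicate 1, GALNT3 read 6.09, 5.24 and 5.64, and NALCN 6.74, 6.67 and 6.56. For 28 rows primary replicate 1 was on the ITGA8-high side and the late pair on the ITGA8-low side. SCN3A read 5.51, 11.55 and 11.57 in the 3 arrays and LPXN, an adaptor of focal adhesions, 9.98, 11.54 and 11.61. HHIP read 9.89 in primary replicate 1, inside the ITGA8-low range of 9.34 to 10.42, and 8.49 and 8.59 in the late pair. The genes given as examples of these patterns were picked after their values were seen.

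Lists of genes by role are described next by how many measured members did not overlap, beside 881 lower (and 597 higher) of 18377 genes with 1 row each. Of 9 genes for the partner of ITGA8 and its ligands, 1 was lower and 0 were higher. That gene was FN1, the fibronectin gene, with 12.76 ± 0.21 in ITGA8-low and 13.16 ± 0.11 in ITGA8-high arrays. The partner ITGB1 overlapped, with 12.85 ± 0.081 in ITGA8-low and 12.98 ± 0.090 in ITGA8-high arrays. NPNT, which encodes the ligand nephronectin, overlapped at 5.77 in ITGA8-low and 6.17 in ITGA8-high arrays. Among 16 other integrin subunits, ITGA11, a collagen receptor, differed by -2.17 and ITGA5, the fibronectin receptor subunit, by -0.99. ITGA7, a laminin receptor, was higher by 0.39, and the other 13 overlapped. Of 10 death receptors and decoys, TNFRSF21 and TNFRSF1A (-0.39) were lower, while FAS (difference 0.077) and TNFRSF10B (-0.483) overlapped.

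Of 35 genes of the extracellular matrix, 11 were lower in ITGA8-low arrays without overlap and 0 were higher, with 25 negative differences and a median difference of -0.341, against -0.004 over all genes. COL5A2, a fibrillar collagen chain, differed by -1.05, COL6A3, of the beaded filaments of collagen VI, by -0.94 and COL8A1 by -0.91. COL6A1, COL6A2, COL5A1, COL12A1, COL1A1, SPARC and THBS1 were the other members without overlap besides THBS2. COL6A3 read 11.48 to 12.09 in ITGA8-low and 12.75 to 12.85 in ITGA8-high arrays, so the ITGA8-low state was the wider one. The list held members in the other direction too, with COL11A1 at a difference of 1.46 and ELN, which encodes elastin, at 0.833, both overlapping.

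Contractile genes gave 4 of 17 lower and 0 higher, with a median of -0.212. These were PALLD, an actin-bundling protein (-0.84), CNN1, calponin (-0.81), MYLK, the myosin light chain kinase (-0.60), and ACTG2, a smooth muscle actin (-0.51). The list of fibroblast identity genes was divided, with 2 lower and 5 higher of 16 (3 higher after centring on array medians). THY1, a surface marker of fibroblasts, averaged 10.87 ± 0.40 in ITGA8-low and 11.88 ± 0.10 in ITGA8-high arrays, and ENG, a TGF-beta co-receptor, differed by -0.60. PRRX1, a homeobox factor of mesenchyme, averaged 11.59 ± 0.14 in ITGA8-low and 10.36 ± 0.43 in ITGA8-high arrays, and TWIST1, a basic helix-loop-helix factor, differed by 0.86. S100A4, a calcium-binding protein of motile fibroblasts, differed by 1.64, but its 2 sets lay only 0.06 apart. It read 10.46 to 11.37 in ITGA8-low and 8.03 to 10.40 in ITGA8-high arrays. PDGFRA and NT5E were the other higher members. Fibroblast genes were at high signals in both states, with list medians per array of 10.52 to 10.96 in ITGA8-low and 10.71 to 10.92 in ITGA8-high arrays.

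Developmental signalling genes lay in both directions. Among 19 genes of the TGF-beta and BMP pathway 3 were lower and 3 higher (5 higher with quantile normalization). The ligands TGFB2 and BMP4 differed by -2.36 and -1.48, and LTBP1, which holds latent TGF-beta in the matrix, by -0.18. NOG, the BMP antagonist noggin, read 9.76 to 10.17 in ITGA8-low and 8.30 to 9.36 in ITGA8-high arrays, a difference of 1.09. LTBP2 differed by 0.78 and the receptor TGFBR1 by 0.57. Of 16 Wnt ligands and antagonists, the antagonist DKK1 was higher by 0.62, and DKK2 (-0.93) and DKK3 (-0.88) were lower, DKK3 on 1 of its 2 rows. Of 18 transcription factors of lung mesenchyme, FOXF2 (-1.22) and ZEB1 (-0.54) were lower and TWIST1 was higher. Both counts changed without B96 replicate 2, when 3 of the 16 Wnt genes were lower and 2 higher, and 4 of the 18 transcription factors were lower and 1 higher. Counts over all 18377 genes then rose as well, from 881 to 1196 lower and from 597 to 784 higher.

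Guidance and adhesion molecules, which steer axons and also migrating mesenchymal cells, had 3 lower and 8 higher of 27. The receptors ROBO2, NRP1 and NRP2 differed by -2.36, -1.59 and -0.76. SEMA3D, a secreted semaphorin, averaged 10.38 ± 0.95 in ITGA8-low and 8.16 ± 0.35 in ITGA8-high arrays, and SLIT2, the ligand of ROBO receptors, 10.60 ± 0.12 in ITGA8-low and 9.66 ± 0.34 in ITGA8-high arrays. NCAM2, a cell adhesion molecule, differed by 1.43, EPHA5 by 1.19, PLXNA2 by 1.12, EFNB2 by 0.731, NLGN1 by 0.729 and NTN4 by 0.624. SLIT2 was thus higher and its receptor ROBO2 lower in the ITGA8-low arrays.

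**Figure D5:**
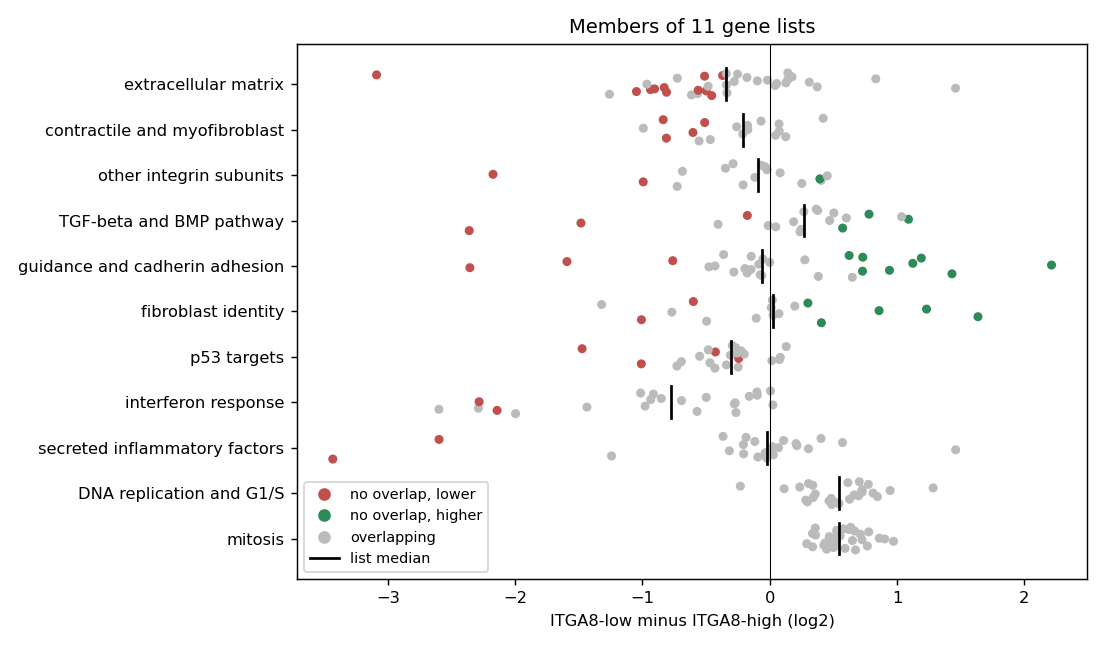
Difference of ITGA8-low minus ITGA8-high (x axis, log2) for each measured member (points) of 11 gene lists (y axis), with black bars at list medians. Red points are lower and green points higher without overlap, grey points overlap; 11 matrix genes are red, and no gene of DNA replication or mitosis is coloured although nearly all lie right of 0.

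Genes of proliferation varied widely within each state. All 30 mitosis genes and 26 of 27 genes of DNA replication had a positive difference, with medians of 0.541 and 0.544, yet 0 of the 57 were without overlap. MKI67, a marker of cycling cells, read 9.53, 9.40, 10.82, 10.62, 10.91 and 10.88 in ITGA8-low arrays and 10.28, 10.13, 8.79, 8.84 and 10.39 in ITGA8-high arrays. A50 replicate 2 and A58 replicate 1 were thus ITGA8-low arrays with less MKI67 than 3 of the 5 ITGA8-high arrays. TOP2A, a topoisomerase of dividing cells, read 11.08 to 12.14 in ITGA8-low and 10.73 to 11.59 in ITGA8-high arrays. Both states thus held arrays with high and arrays with low values of these 2 genes.

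The p16 gene CDKN2A, an inhibitor of the cell cycle, read 9.46, 9.42, 8.10, 7.85, 6.33 and 6.54 in ITGA8-low arrays and 9.29, 9.25, 9.59, 9.30 and 8.87 in ITGA8-high arrays. The first 2 ITGA8-low arrays were as high as the ITGA8-high ones, so the low ITGA8 level was present in arrays with a high CDKN2A level. CDKN1A, which encodes the inhibitor p21, overlapped in like manner, with 11.52 and 11.48 in those 2 arrays, 10.33 to 10.90 in the other 4 ITGA8-low arrays and 10.92 to 11.70 in ITGA8-high arrays. CDKN2B, the neighbour of CDKN2A, averaged 9.49 ± 0.22 in ITGA8-low and 9.63 ± 0.16 in ITGA8-high arrays. TERT, whose level was used to choose the arrays, averaged 11.02 ± 0.25 in ITGA8-low and 11.88 ± 0.23 in ITGA8-high arrays, and the 2 sets did not overlap. The other 8 telomerase and shelterin genes overlapped.

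Target genes of p53 included 4 of 22 lower and 0 higher, with a median of -0.301 and 18 negative. SPATA18, a mitochondrial quality control gene, differed by -1.47, SESN2, a stress-induced sestrin, by -1.01, the DNA repair gene XPC by -0.43 and BAX, which promotes apoptosis, by -0.24. For BAX the sets were only 0.01 apart, the last digit of the values. Without B96 replicate 2, 8 of the 22 were lower, while the count over all 18377 genes rose from 881 to 1196 lower. Among 23 secreted inflammatory factors, IL6 and HGF were lower and 0 were higher. CXCL8 (-1.24) and CXCL12 (1.46) overlapped.

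Interferon response genes depended on 1 array. Over all 11 arrays 2 of 22 were lower without overlap, MX1, an antiviral GTPase, and IFI44. Without B96 replicate 2 the count was 15 of 22, and the median difference was -0.955 without it and -0.772 with it. Leaving out that array eased the rule for all genes too, with 1196 lower of 18377 against 881 over all 11 arrays. MX1 read 6.10 to 6.44 in ITGA8-low arrays and 9.74, 9.53, 8.49, 8.35 and 6.98 in ITGA8-high arrays, and IFI44 read 6.17 to 7.05 against 9.26, 9.25, 9.08, 9.05 and 7.11. B96 replicate 2 was the lowest ITGA8-high array for both. With quantile normalization or centring on array medians, 1 of the 22 was without overlap.

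Markers of other cell types were examined, since a bulk array cannot tell fewer cells of a type from less RNA per cell. Of 9 endothelial markers 0 were without overlap, and of 8 blood markers 1, CD68 (-0.39), a lysosomal protein that fibroblasts also express, with PTPRC, the pan-leukocyte marker, at 5.49 in ITGA8-low and 5.57 in ITGA8-high arrays. Of 9 epithelial markers KRT18 (-1.47), KRT19 (-1.43) and NKX2-1 (-0.27) were lower, while EPCAM overlapped at 5.73 in ITGA8-low and 5.70 in ITGA8-high arrays and CDH1 at 5.99 in ITGA8-low and 6.06 in ITGA8-high arrays. For NKX2-1 the sets were only 0.02 apart. KRT18 has many processed pseudogenes, so its 2 rows, both lower, are uncertain. SYT1 (0.825) and SNAP25 (0.788) were higher of 7 markers of neurons and glia, and ACTC1, a cardiac actin, of 8 muscle markers, with 8.63, 8.57, 6.68, 6.68, 9.76 and 9.74 in ITGA8-low arrays and 6.16 to 6.61 in ITGA8-high arrays. RUNX2 (-0.585) was lower of 8 markers of fat, cartilage and bone. Summarised as list medians per array, the endothelial, blood, epithelial and neural lists had the ranges 6.55 to 6.82, 6.32 to 6.86, 6.67 to 6.99 and 7.72 to 8.03 in ITGA8-low arrays. In ITGA8-high arrays they were 6.58 to 6.83, 6.38 to 6.62, 6.75 to 7.0 and 7.58 to 8.01. None of these markers was listed at 0, and their part in the differences was not tested.

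Variation inside the ITGA8-low state was tested on labelled passage, which the rule did not use, with limma's linear slope over its 6 arrays at passages 50 to 95. None of 28869 rows (0%) passed a Benjamini-Hochberg adjusted p of 0.05, the smallest adjusted p being 0.434. An unadjusted p under 0.05 was found for 3308 rows, a larger share than the 0.05 that rows without a slope would give. With 6 arrays, 0 called rows do not show that no row changed with passage. The rule held ITGA8 low in these arrays, and AMZ2P1, TNFRSF21 and VAT1L are markers of the same low state. Their slopes were limited in advance by that choice, so none is given for these genes. Per 10 passages CDKN2A had a slope of -0.65 ± 0.21 (SE) and an adjusted p of 0.434, and CDKN1A one of -0.26 ± 0.085. RTN1 had 0.25 ± 0.10, ST6GALNAC5 0.36 ± 0.12 and SCN3A -0.23 ± 0.073, none past the threshold. RTN1, ST6GALNAC5 and SCN3A were picked for high values in these same 6 arrays. Their slopes carry that selection and are only a description. The median size of the slope was 0.0541 in lower rows, 0.0387 in higher rows and 0.053 in overlapping rows. Selection for no overlap acts on the spread within the state, so these sizes describe the selection too. Passage comes from labels that array similarity does not follow, which limits this test. The fit also took the 6 arrays as independent. A50 replicate 2 and A58 replicate 1 had a correlation of 0.991, and A58 replicate 2 and A67 replicate 1 one of 0.9895. If arrays of a close pair are not independent, the SEs and p-values are too small.

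Spread within a state was measured for all rows. The median SD of lower rows was 0.171 in ITGA8-low and 0.148 in ITGA8-high arrays, of higher rows 0.132 in ITGA8-low and 0.149 in ITGA8-high arrays, and of all rows 0.193 in both states. Rows with narrow spread meet a rule of no overlap more easily, so these values describe the selection.

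By chromosome, genes lower in ITGA8-low arrays were spread over the genome. Over all 18377 genes, 881 were lower and 597 higher. Chromosome 19 had 88 lower and 7 higher of 1306 genes (6.74% and 0.54%), uneven mostly in its few higher genes. Chromosome 15 came close to its lower share, with 6.62% lower and 4.18% higher. Chromosome 22 had 20 lower and 4 higher of 421 (4.75% and 0.95%), and chromosome X 10 lower and 26 higher of 694 (1.44% and 3.75%). Zinc finger genes with a ZNF symbol on chromosome 19, a family picked after the values were seen, had 34 lower and 0 higher of 237. These 34 are part of the 88. The family median was -0.173 (-0.145 with quantile normalization and -0.14 after centring). The largest differences among the 34 were those of ZNF415 (-2.72), the antisense RNA ZNF667-AS1 (-2.21), ZNF730 (-2.19) and the pseudogene ZNF542P (-1.92), so not all of these symbols stand for a zinc finger protein. Rows of such families can share probes.

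Neighbouring genes were compared through the RefSeq gene order. Of 18299 pairs of neighbours, 146 had both genes without overlap, 71 both lower, 35 both higher and 40 in opposite directions. With 881 lower and 597 higher of all 18377 genes, many such pairs arise without any link between neighbours. Whether there were more than that was not tested. With at least 1 log2 in both genes, 16 pairs were left, 12 of them in the same direction. SCN3A (3.11) and SCN2A (1.40) were higher together, as were PTGS2 and PLA2G4A, while IFI44 (-2.14) and ADGRL4 (-4.51) were lower together. PCDHB5 (-3.85) and its neighbour PCDHB6 (1.20) went opposite ways, and in the PCDHB cluster 4 of 18 genes were higher and PCDHB5 alone was lower. The neighbours of ITGA8 did not share its difference, with 0.459 for FAM171A1 and 0.146 for MINDY3. Next to AMZ2P1, GNA13 (-0.204) and RGS9 (-0.376) were lower, and ARHGAP27P1 (-0.299) overlapped.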

How the data were processed

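Each of the 14 samples was measured on 1 Affymetrix gene-level array. The authors deposited log2 values for 28869 rows, to 2 decimals on a scale from 0 to 14.27, and the labels state neither the normalization nor the log base, which the range implies. Array medians were 7.26 to 7.48. The values were used as deposited, with no filter. One symbol was available for 19310 rows, from the platform annotation updated through RefSeq's gene table, several for 1752 and none for 7807; in lists the row with the highest mean stood for its gene. Precision is limited by the number of arrays.

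Members, lists and rules were chosen with earlier results of these data known. Named are the defining genes, TERT, CDKN2A, CDKN2B, CDKN1A, MKI67 and TOP2A, the 15 genes with the largest difference in each direction without overlap, and up to 4 members without overlap from each of 23 lists; other genes were named after their values were seen. The difference is the mean of ITGA8-low minus the mean of ITGA8-high arrays. The slope on passage was fitted with limma 3.58.1 (lmFit and eBayes, two-sided, Benjamini-Hochberg over all rows) in R 4.3.3, with 4 residual and 3.22 prior degrees of freedom, and tested on simulated data. The labels report biological duplicates. CpG windows come from RefSeq promoters (GRCh38.p14). Replicate numbers were not taken to pair arrays: only A58 and A67 have both numbers in the ITGA8-low state, and the correlation of deviations of their replicates 1 was 0.099.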

Additional observations from a re-analysis of the deposited data

Results flagged for a closer look

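Among 162 sets of 5 or 6 values (81 named genes in each state), 7 held an array far from the others of its state, and chance alone gives about 1 in 20 sets. In all 7 the array was B96 replicate 2 in the ITGA8-high state. The other ITGA8-high arrays formed close pairs. Primary replicate 2 and A39 replicate 1 had a correlation of 0.9929, and A39 replicate 2 and A50 replicate 1 one of 0.9917. B96 replicate 2 had 0.979 with its closest array, A39 replicate 1. An array with a close partner can hardly be flagged, so the count cannot decide whether B96 replicate 2 is unusual. B96 replicate 2 read low for PCDHB5 at 6.48 (other ITGA8-high arrays 9.91 to 10.99) and IFITM1 at 8.02 (9.90 to 10.62). It also read low for IL6 at 7.96 (10.29 to 11.08) and IFI44 at 7.11 (9.05 to 9.26). It read high for TENT5C at 10.53 (9.27 to 9.43), KRT18 at 11.95 (11.42 to 11.54) and ST6GALNAC5 at 6.56 (6.06 to 6.18). B96 replicate 2 is the single ITGA8-high array labelled hTERT B, and the part of that label in these values was not tested.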

How the results depend on the processing

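Leaving out each of the 11 arrays gave 1137 to 1463 lower and 805 to 1033 higher rows without overlap, against 1080 and 754 with all arrays, and the arrays labelled hTERT A alone gave 1679 and 1266; fewer arrays ease a rule of no overlap. A difference of at least 1 log2 left 265 and 130 rows and a gap of at least 0.5 log2 left 190 and 103. Quantile normalization gave 1063 and 843, sharing 88.4% and 91.2% of the original rows, and centring on array medians 787 and 676, sharing 66.5% and 71.8%. The filter on dim rows and 1 row per gene stayed within 1.5 times. Over the arrays left out in turn, differences were -5.79 to -5.65 for AMZ2P1, -5.34 to -5.14 for ITGA8, -4.71 to -4.49 for TNFRSF21 and -4.22 to -3.97 for VAT1L. The slope on passage gave 0 called rows under all 13 alternatives, the replicate block among them (0 rows, with 4144 at an unadjusted p under 0.05), and the smallest adjusted p ranged from 0.182 to 0.82. After centring, lower counts were 0 for blood, 2 for epithelial, 3 for p53 and 2 for TGF-beta and BMP genes, and higher counts 1 for neuron and glia and 3 for fibroblast identity. Without B96 replicate 2 higher counts were 2 for other integrins and 1 each for contractile genes, secreted factors and endothelial markers. The higher count over all 18377 genes was then 784, against 597 with all arrays. Alternatives for gene lists and families were chosen after seeing the data. Signal over background is unknown, which limits statements on low values.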

Other observations

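Some further gene groups, picked after their values were seen, are given as values, beside 881 lower and 597 higher of all 18377 genes. Of 5 TFAP2 transcription factor genes, all had a negative difference (also with quantile normalization and after centring), and TFAP2C (-2.72) and TFAP2A (-1.44) were lower in ITGA8-low arrays without overlap. TFAP2C read 5.33 to 5.60 in ITGA8-low and 7.77 to 8.57 in ITGA8-high arrays, and 5.50, 5.71 and 5.44 in primary replicate 1, A95 replicate 2 and B96 replicate 1. Of 40 SNORD115 and SNORD116 rows of the imprinted region of chromosome 15, 5 were lower and 0 higher; these rows can share probes. Of 124 sodium, potassium and calcium channel genes, 7 were higher, SCN3A, SCN2A, SCN8A, SCN9A, KCND2, KCNK2 and CACNA1A, and 1, KCNJ15, was lower. As a whole these channel genes hardly differed, with a median of 0.027, 54 negative and 70 positive differences. VCAM1, an adhesion molecule for leukocytes, averaged 5.25 ± 0.11 in ITGA8-low and 7.27 ± 0.30 in ITGA8-high arrays (SD, n = 6 and 5).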
